A study of Mus musculus with 18 samples.

Results

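The 6 libraries labelled E20/p53 were compared with each other, as 2 sets of 3 out of the 18 libraries of the series. Replicates 1 to 3 held high Krt5 and Krt14 and almost no Col1a2, and are called the keratin-high set. Replicates 4 to 6 held high Col1a2 and almost no Krt5 or Krt14, and are called the collagen-high set. The labels give all 6 the same genotype and the same tissue. The sets were drawn from the measured levels of those 3 genes, so every difference between them is a description of 3 libraries beside 3 libraries, without a test.

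All 6 libraries are labelled squamous epithelium of the mouse tongue with the genotype LSL-PIK3CA H1047R, LSL-p53+/R172H and K14-Cre. LSL marks an allele kept silent by a stop element between loxP sites until Cre removes it, H1047R activates the catalytic subunit of PI3-kinase, and R172H changes the DNA-binding domain of p53. K14-Cre is Cre driven by the Krt14 promoter, which is active in basal keratinocytes. The other tongue libraries are 3 with 1 LSL-p53+/R172H allele (p53) and 6 with LSL-PIK3CA H1047R (E20), for which the labels name no Cre, and the 3 wild type libraries (WT) come from the esophagus. No age, sex, tumour stage or animal is given, so nothing shows that the libraries of a set come from different animals, and p-values measure only the spread between libraries, which may be technical. Gene-level reads do not tell a mutant from a wild type allele, and whether the stop elements had been removed in either set was not tested.

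Stratified squamous epithelium rests on a basal layer of keratinocytes, whose filaments are built from the pair Krt5 and Krt14 and whose identity depends on the transcription factor p63. Desmosomes tie these cells to each other and hemidesmosomes tie them to the basement membrane. Below the epithelium of the tongue lie fibroblasts, which secrete type I and type III collagen, vessels with smooth muscle, and skeletal muscle, whose precursors express Pax7, Myf5 and Myod1. In bulk RNA, fewer cells of a type and less RNA per cell cannot be told apart.

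In GRCm38.p6, the assembly behind the submitters' mm10, RefSeq places Krt5 on chromosome 15 at 101707069 to 101712905, Krt14 on chromosome 11 at 100203162 to 100207510, and Col1a2 on chromosome 6 at 4505618 to 4541543. Chrna1 lies on chromosome 2 at 73563281 to 73580338, Des on chromosome 1, and the neighbours H19 and Igf2 on chromosome 7 at 142575530 to 142578146 and 142650768 to 142666816. The 250 bases before the start of Krt5, and of the muscle genes Chrna1 and Des, are shown because these genes stood near 0 in one set and high in the other. The RefSeq windows (GRCm38.p6) are chr15:101712906-101713155 on the minus strand for Krt5, chr2:73580339-73580588 on the minus strand for Chrna1 and chr1:75360042-75360291 on the plus strand for Des. Capitals mark the E-box letters CAGCTG, which read the same on both strands, and CAGGTG, also searched as CACCTG. E-boxes are sites that basic helix-loop-helix factors, such as those of the muscle lineage, and the SNAI and ZEB repressors can bind.
Krt5: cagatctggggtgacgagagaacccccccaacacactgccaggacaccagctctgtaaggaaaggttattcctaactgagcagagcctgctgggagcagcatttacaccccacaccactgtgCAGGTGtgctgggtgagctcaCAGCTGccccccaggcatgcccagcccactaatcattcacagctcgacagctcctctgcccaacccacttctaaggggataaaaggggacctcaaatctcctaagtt
Chrna1: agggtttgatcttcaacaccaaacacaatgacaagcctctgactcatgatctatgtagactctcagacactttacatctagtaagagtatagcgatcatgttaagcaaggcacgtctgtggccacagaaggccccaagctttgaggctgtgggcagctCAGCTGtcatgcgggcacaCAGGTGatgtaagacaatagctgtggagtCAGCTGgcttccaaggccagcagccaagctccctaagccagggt
Des: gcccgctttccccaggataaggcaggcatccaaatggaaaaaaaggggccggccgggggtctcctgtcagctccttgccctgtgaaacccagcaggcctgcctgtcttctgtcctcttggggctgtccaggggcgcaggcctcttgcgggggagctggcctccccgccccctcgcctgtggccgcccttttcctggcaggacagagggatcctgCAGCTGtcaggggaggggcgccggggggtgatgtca
The matches begin 128 and 107 bases before the start in Krt5, 92, 73 and 44 bases before it in Chrna1, and 36 bases before it in Des, with no overlap between matches. CAGCTG stood in 13.0% of all 32851 RefSeq windows of this length and CAGGTG in 17.2%. Of the 11 windows found for the skeletal muscle list described below, 4 held CAGCTG and 2 held CAGGTG, and of the 9 found for the basal and stratified keratin list, 2 and 4 did. A match is a run of letters and shows no binding.

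Levels are CPM, reads scaled to the library total as deposited. The 6 libraries held about 14592000 to about 18176000 reads. Pearson's r across the 15235 genes tested, which are not independent replicates, was 0.993 to 0.994 for the library pairs inside the keratin-high set and 0.993 inside the collagen-high set. For the 9 pairs that join the sets it was 0.859 to 0.862. The variance between libraries, as a median over genes, was 1.72 and 2.00 times counting error inside the sets and 24.5 times it over all 6.

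Krt5 stood at 124, 119 and 136 CPM in the keratin-high libraries and had 0 reads in all 3 collagen-high libraries. Its level was at least 2092-fold higher in the keratin-high set, against a floor of 3 reads over the set. Krt14, its partner, stood at 495, 476 and 478 CPM against 0.238, 0.227 and 0.132 CPM, which is 2393-fold. Col1a2, a chain of type I collagen, stood at 1.60, 1.63 and 1.52 CPM in the keratin-high libraries and at 7073, 7799 and 7301 CPM in the collagen-high libraries, 4680-fold higher in the latter. These 3 genes chose the sets, and no library of one set came near the other set. The floor covers counting error only, since reads copied by PCR are not independent molecules.

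**Figure D1:**
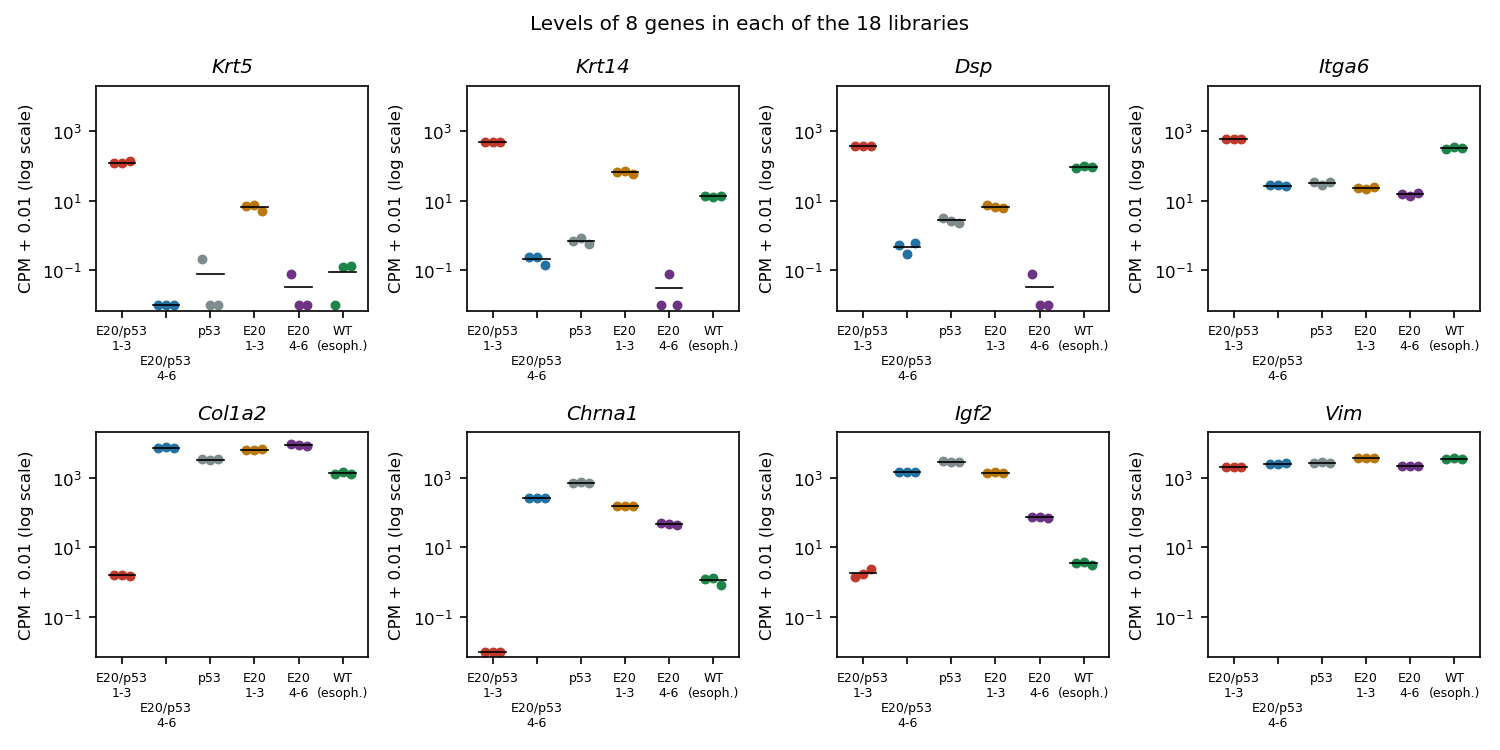
Levels of 8 genes in each library, as CPM plus 0.01 on a log axis, with 1 point per library and a bar at the mean of each set. Krt5, Krt14 and Dsp stood high in E20/p53 replicates 1 to 3, Col1a2, Chrna1 and Igf2 in replicates 4 to 6, and Vim was at 2034 and 2530 CPM in the keratin-high and collagen-high sets.

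A gene was counted as apart when the set means differed at least 4-fold, the 3 and 3 libraries did not overlap, and the higher set held 1 CPM or more. 914 genes (6.00% of 15235) were higher in the keratin-high set and 823 (5.40%) in the collagen-high set, together 11.4%. Nothing is read from these shares, since the sets were chosen by level. They are the shares to set beside each list count by the 4-fold rule below. Of the 914, 63 had 0 reads in the collagen-high set, and of the 823, 53 had 0 reads in the keratin-high set. At 50 CPM or more in the higher set, 121 genes were higher in the keratin-high set and 212 in the collagen-high set. Without the fold minimum, the 3 and 3 libraries did not overlap for 12228 genes (80.3%). The median log2 difference over all genes, keratin-high minus collagen-high, was -0.02, and every log2 value below has this direction unless another is given.

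**Figure D2:**
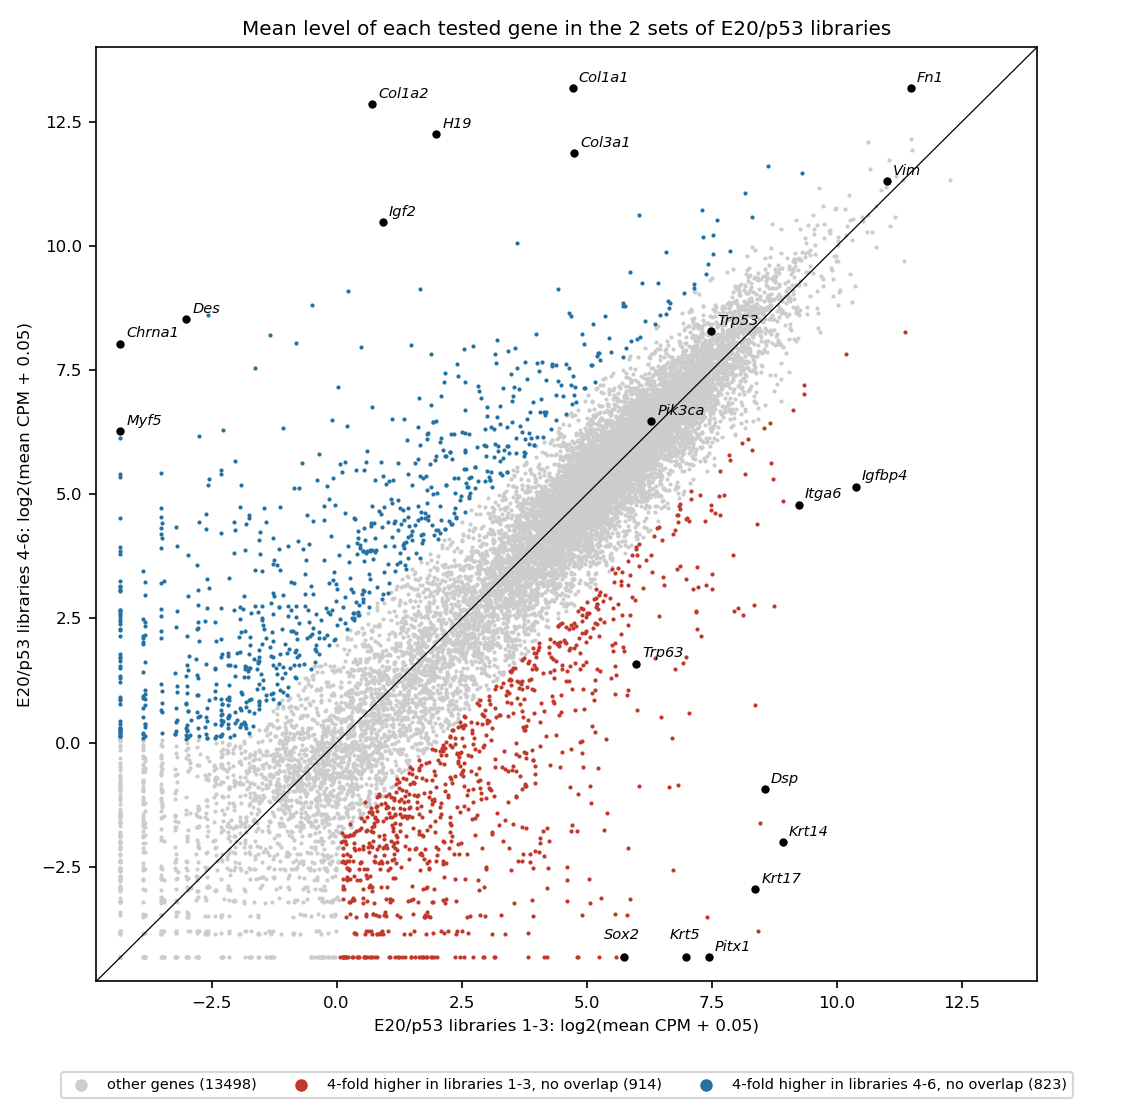
Mean level of each tested gene in the keratin-high set (x axis) and the collagen-high set (y axis), both as log2 of mean CPM plus 0.05, with the line of equal levels. The 914 red and 823 blue genes were apart by the 4-fold rule, and Trp53, Pik3ca and Vim lie near the line.

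Keratins and their regulators made up the epithelial side. Of 10 tested basal and stratified keratins, 8 were at least 4-fold higher in the keratin-high set and 0 in the collagen-high set, with a median log2 difference of 6.63. The list holds Krt5 and Krt14, which chose the sets, and without them the counts were 6 and 0 of 8, with a median of 5.90. Krt17, a keratin of activated and appendage epithelium, stood at 342, 317 and 329 CPM against 0.0596, 0.114 and 0.0658 CPM (4079-fold). Krt6a, a keratin of wounded and tongue epithelium, stood at 35.9, 38.3 and 38.8 CPM against 0 reads (at least 623-fold). Krt6b, Krt15 and Krt16 followed the same division, with set means of 6.53, 2.33 and 13.0 CPM against 0, 0 and 0.475 CPM. Of 4 tested keratins of simple epithelium, 1 was at least 4-fold higher in each set (median -0.86). Krt18 was at 8.76, 9.19 and 8.82 CPM against 0 reads, while in WT esophagus its mean was 228 CPM. Krt19 lay the other way, at 0.058 against 1.28 CPM.

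The transcription factor list of epithelial identity had 8 of 15 tested genes higher in the keratin-high set and 0 higher in the collagen-high set, with a median of 3.89. Pitx1, a homeobox factor of the oral ectoderm and hind limb, stood at 178, 165 and 176 CPM against 0 reads (at least 2859-fold). Sox2, which specifies the oral and esophageal lining, stood at 52.4, 54.6 and 54.2 CPM against 0 reads (at least 889-fold). Trp63, the gene of p63, stood at 60.6, 67.9 and 62.3 CPM against 3.22, 2.44 and 3.23 CPM (21.6-fold). All 3 factors thus lay well apart between the sets, without overlap. Tfap2a (86.9 against 5.77 CPM), Klf5 (31.9 against 6.02 CPM) and Ehf (13.5 against 0.511 CPM), further epithelial factors, were also at least 4-fold higher. Pax9, a factor of the pharyngeal endoderm and jaw, was at 52.1, 51.7 and 51.2 CPM against 0 reads. Id4, which blocks helix-loop-helix factors, was at 334, 377 and 340 CPM against 0.357, 0.398 and 0.0658 CPM (1242-fold).

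Other genes with the largest differences in this direction were not keratins. Tns4, a tensin at focal adhesions, was at 349, 337 and 336 CPM, against 0, 0 and 0.0658 CPM. Wfdc2, an epithelial protease inhibitor, was at 160, 180 and 170 CPM against 0, 0.114 and 0 CPM. No fold is given for these, since their lower set held 1 to 3 reads. Defb3, an antimicrobial defensin, was at 44.0, 62.8 and 49.3 CPM against 0 reads, and it also had 0 reads in every other library of the series. Rapgef5, an exchange factor for Rap, was at 103, 111 and 104 CPM against 0.238, 0.0568 and 0.0658 CPM (877-fold).

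Junction genes were next. Of 11 desmosome genes, 7 were higher in the keratin-high set and 1 in the collagen-high set, with a median of 4.77. Dsp, which anchors keratin filaments in the desmosome, stood at 368, 382 and 377 CPM against 0.536, 0.284 and 0.592 CPM (810-fold). Perp, a desmosome protein and p53 target, stood at 320, 339 and 324 CPM against 1.85, 1.53 and 1.51 CPM (201-fold). Pkp1, a plakophilin, stood at 321, 320 and 335 CPM against 6.61, 6.70 and 6.91 CPM (48.3-fold), and the desmosomal cadherin Dsc3 at 12.6, 16.1 and 13.9 CPM against 0 reads. Of 15 cadherin and tight junction genes, 8 were higher in the keratin-high set and 0 in the other (median 3.31). Cdh3, the P-cadherin of basal cells, stood at 133, 127 and 135 CPM against 1.91, 1.25 and 1.25 CPM (89.5-fold). The keratin-high set nevertheless held little of 2 defining epithelial genes. Cdh1, the gene of E-cadherin, was at 1.67, 1.74 and 2.47 CPM there and 0.119, 0.170 and 0.132 CPM in the collagen-high set. Epcam was at 0.864, 0.841 and 0.674 CPM against 0 reads.

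Hemidesmosome genes were split by component. Of 11 genes of the hemidesmosome and laminin-332, 4 were higher in the keratin-high set and 0 in the other, with a median of 0.27. Itga6, a subunit of the laminin-binding integrin, stood at 600, 618 and 588 CPM against 28.0, 28.8 and 25.9 CPM (21.8-fold). Its partner Itgb4 stood at 160, 154 and 153 CPM against 4.29, 4.26 and 4.54 CPM (35.8-fold). Col17a1, the transmembrane collagen, was at 10.7 against 0.386 CPM, and the laminin chain Lama3 at 3.38 against 0.0818 CPM. Col7a1, the anchoring fibril collagen, lay the other way, at 12.4, 11.3 and 12.4 CPM against 32.2, 39.8 and 34.3 CPM. The squamous differentiation list, which marks cells above the basal layer, had 1 of 9 tested genes higher (Sprr1a, 3.07 against 0.228 CPM) and a median of 0.60. Its other members were closer: Ecm1 was at 312 against 404 CPM and Cstb at 126 against 151 CPM.

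The mesenchymal side began with collagens. Of 15 interstitial collagens, 9 were at least 4-fold higher in the collagen-high set and 1 in the keratin-high set, with a median of -2.26. Their summed level was 1433 to 1482 CPM in the keratin-high libraries and 26478 to 28837 CPM in the collagen-high libraries. Without Col1a2, which chose the sets, 8 of 14 were higher in the collagen-high set, the median was -2.16, and the sums were 1432 to 1480 CPM and 19177 to 21038 CPM. Col1a1 stood at 26.4, 25.8 and 26.5 CPM against 9236, 9952 and 8579 CPM (354-fold). Col3a1, of type III collagen, stood at 26.8, 27.1 and 26.6 CPM against 3595, 3856 and 3749 CPM (139-fold). Differences were smaller for Col6a3 (8.65-fold, to 458 CPM) and Col5a1 (317 against 1525 CPM, 4.82-fold). The keratin-high libraries thus held measurable type V and VI collagen beside very little type I.

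Enzymes that modify and cross-link collagen lay on the same side. All 16 were without overlap and higher in the collagen-high set, 7 of them at least 4-fold, with a median of -1.85; 41.4% of all tested genes were without overlap in that direction. The lysyl oxidase relatives stood out, with Loxl1 at 11, 10.7 and 10.5 CPM against 236, 242 and 231 CPM (22.1-fold). Loxl2 was at 5.60 against 76.0 CPM, Loxl3 at 2.91 against 49.7 CPM and Loxl4 at 2.62 against 42.1 CPM. Fkbp10, a collagen chaperone, stood at 0.802, 0.785 and 0.393 CPM against 433, 460 and 453 CPM (684-fold). Of 15 basement membrane genes, 6 were higher in the collagen-high set (median -0.60). Lama1 was at 0.247, 0.056 and 0.169 CPM against 73.4, 81.7 and 81.3 CPM (510-fold) and the linker Nid1 at 58.0, 59.4 and 56.9 CPM against 705, 731 and 681 CPM (12.2-fold).

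Fibroblast and contractile genes followed. Of 14 fibroblast markers, 8 were higher in the collagen-high set and 0 in the other (median -2.18). Serpinf1, which encodes a secreted serpin of stromal cells, stood at 11.4, 11.8 and 13.0 CPM against 1047, 1062 and 1096 CPM (88.2-fold). Postn, the matrix protein periostin, stood at 149, 174 and 150 CPM against 1697, 1643 and 1708 CPM (10.6-fold), and Pdgfrb at 41.4 against 386 CPM. Pdgfra, the other PDGF receptor, was close, at 50.7 against 65.2 CPM. Of 13 smooth muscle and myofibroblast genes, 8 were higher in the collagen-high set (median -2.97). Des, the muscle intermediate filament, stood at 0, 0.056 and 0.169 CPM against 353, 365 and 385 CPM (4760-fold). Actg2, smooth muscle actin of hollow organs, stood at 0.432, 0.280 and 0.337 CPM against 291, 292 and 298 CPM (845-fold). Acta2, the actin of myofibroblasts, was present in both, at 399, 404 and 382 CPM against 3071, 3043 and 3200 CPM (7.85-fold).

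General mesenchymal markers were present in both sets, at levels that mostly did not overlap but differed less than those of Col1a1 and Col3a1. Vim, the vimentin gene, stood at 1995, 2054 and 2053 CPM in the keratin-high libraries and 2526, 2470 and 2593 CPM in the collagen-high libraries, a log2 difference of -0.31. Cdh2, the N-cadherin gene, was higher in the keratin-high set, at 146 against 92.3 CPM. Of 11 transcription factors of the epithelial-mesenchymal transition, some of which repress epithelial genes, 1 was at least 4-fold apart, and the median was -0.66. That gene, Snai1, stood at 8.14, 9.08 and 9.16 CPM against 52.2 to 54.5 CPM (6.07-fold). Zeb1 (90.7 against 160 CPM), Zeb2 (95.8 against 123 CPM) and Snai2 (59.6 against 94.4 CPM) were present in both sets. Twist1 was higher in the keratin-high set, at 36.2, 42.6 and 41.3 CPM against a mean of 22.2 CPM. The keratin-high set thus held Krt5 and Krt14 together with Vim, Cdh2, Zeb1 and Zeb2. Fn1, the fibronectin gene, was at 2842 against 9220 CPM, and of 12 genes of the mesenchymal cytoskeleton and adhesion list 4 were at least 4-fold higher in the collagen-high set (median -1.03), among them Cdh11 (43.5 against 282 CPM) and Itga5 (101 against 459 CPM).

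**Figure D3:**
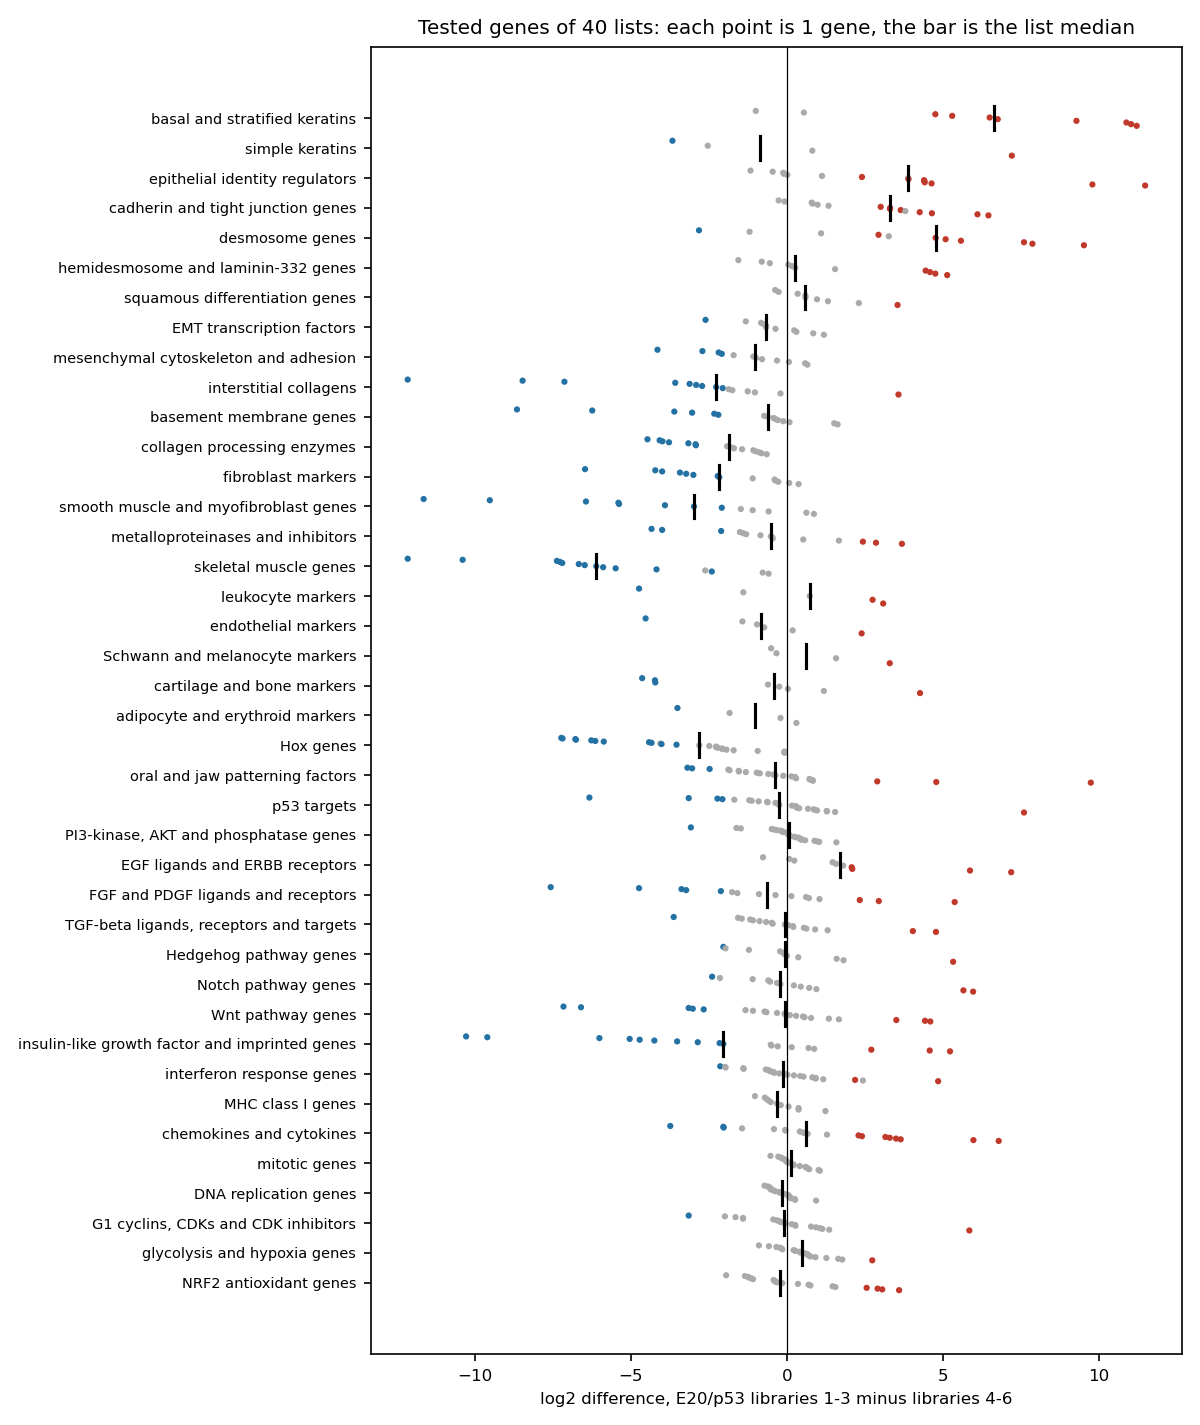
Log2 difference between the set means, keratin-high minus collagen-high, of each tested gene in 40 lists, with 1 point per gene and a bar at the list median. Red and blue points were apart by the 4-fold rule, and the medians run from 6.63 for basal and stratified keratins to -6.10 for skeletal muscle genes.

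Skeletal muscle genes had the lowest median of the 42 lists. All 15 were without overlap and higher in the collagen-high set, beside 41.4% of all tested genes. Of the 15, 12 were at least 4-fold higher there, with a median of -6.10 over the list. Their summed level was 11.8 to 12 CPM in the keratin-high libraries and 567 to 599 CPM in the collagen-high libraries. Chrna1, part of the acetylcholine receptor of the neuromuscular junction, had 0 reads in the keratin-high libraries and stood at 256, 262 and 264 CPM in the others (at least 4501-fold). Myf5, a factor of muscle precursors, had 0 reads against 76.2, 76.8 and 77.7 CPM (at least 1329-fold). Cdh15, the M-cadherin of satellite cells, stood at 1.30, 1.06 and 0.562 CPM against 137, 151 and 141 CPM (149-fold). Myf5 and Cdh15 are known from muscle precursors. The precursor factors Pax3 and Pax7 were at 0.153 and 0.368 CPM against 18.6 and 7.64 CPM.

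Most of the muscle genes named here had a lower mean in the collagen-high set than in p53 tongue, which stood at 721 CPM for Chrna1, 347 CPM for Cdh15 and 43.6 CPM for Pax7. Myod1 had 0 reads in the keratin-high set and stood at 9.95, 9.89 and 8.56 CPM in the collagen-high set, against a mean of 153 CPM in p53. Myog, which drives fusion and differentiation, had 0 reads against 8.34, 8.47 and 9.81 CPM, and 119 CPM in p53. Acta1, skeletal muscle actin, was at 0.363 against 17.3 CPM, and 179 CPM in p53. Myf5 did not follow this order, with 76.9 CPM in the collagen-high set and 60.2 CPM in p53. In E20 replicates 1 to 3 and 4 to 6, Chrna1 was at 153 and 46.2 CPM and Myod1 at 0.0844 and 0.157 CPM.

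Other genes with the largest differences towards the collagen-high set came from several families. Ankrd1, a stretch-responsive nuclear protein of muscle, was at 0.185, 0 and 0.169 CPM against 401, 381 and 389 CPM (3372-fold). Mgl2, a lectin known from macrophages and dendritic cells, had 0 reads against 68.7, 68.8 and 72.6 CPM. In the same libraries the leukocyte genes Ptprc and Adgre1 had 0 reads, and Csf1r, the macrophage receptor gene, was at 1.79, 2.05 and 2.76 CPM. Lrrc17, a secreted leucine-rich repeat protein, was at 0.273 against 185 CPM, and Tfpi, an inhibitor of coagulation, at 0.0991 against 72.4 CPM.

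Insulin-like growth factor and imprinted genes, many of which are expressed from 1 parental allele in the embryo, leaned to the collagen-high set. Of 19, 10 were higher there and 3 in the keratin-high set, with a median of -2.03. H19, a maternally expressed RNA, stood at 3.70, 3.47 and 4.55 CPM against 4694, 4857 and 5053 CPM (1242-fold). Its neighbour Igf2, a fetal growth factor expressed from the paternal allele, stood at 1.36, 1.74 and 2.42 CPM against 1422, 1420 and 1430 CPM (769-fold). Both were also high in p53 tongue, at 9993 and 2879 CPM, and near the keratin-high level in WT, at 4.10 and 3.47 CPM. Peg3 (9.57 against 110 CPM), Grb10 (161 against 1161 CPM) and Igf1 (0.402 against 14.8 CPM) lay on the same side. Igf2bp1, an RNA-binding protein of fetal tissue, was at 0.501 against 34.7 CPM. The binding proteins were divided: Igfbp4 stood at 1330, 1323 and 1327 CPM against 31.4, 37.3 and 37.7 CPM (37.5-fold), and Igfbp5 at 21.4 against 561 CPM (26.1-fold the other way). Dlk1 and Meg3, another imprinted pair, stood at 1.11 and 1.46 CPM in the keratin-high set and 0.124 CPM and 0 reads in the collagen-high set.

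Genes of the Hox clusters, which pattern the trunk from head to tail, were at or near 0 throughout the keratin-high set. Of 25 tested, 22 were without overlap and higher in the collagen-high set, beside 41.4% of all tested genes. Of the 25, 11 were at least 4-fold higher there, with a median of -2.80 over the list. The summed level of the list was 0.730 to 1.11 CPM in the keratin-high libraries and 64.8 to 70.8 CPM in the collagen-high libraries. Hoxa4 had 0 reads against 7.98, 8.69 and 8.36 CPM (at least 144-fold), and Hoxa5 had 0 reads against 6.91, 5.34 and 6.71 CPM (at least 109-fold). Hoxb3 was at 0, 0.056 and 0 CPM against 9.95, 10.6 and 12.1 CPM, and it stood at 27.2 CPM in WT, 7.92 CPM in p53 and 25.4 and 19 CPM in the E20 sets. The keratin-high libraries were therefore the only ones of the 6 sets with Hoxb3 under 1 CPM.

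Oral and jaw patterning factors were mixed, with 3 of 25 higher in each set and a median of -0.36. Tbx15, a T-box factor, was at 7.99 against 44.4 CPM (5.54-fold). Alx4, a craniofacial homeobox factor, was higher in the keratin-high set, at 4.51 against 0.136 CPM.

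Ligands and receptors differed by family. Of 10 EGF ligands and ERBB receptors, 4 were higher in the keratin-high set and 0 in the other, with a median of 1.69, and all 4 were ligands. Tgfa stood at 18, 18.3 and 18.8 CPM against 0, 0.114 and 0.132 CPM (228-fold). Areg stood at 17.1, 18.3 and 17.1 CPM against 0.238, 0.284 and 0.197 CPM (72.3-fold), and Ereg at 87.5, 86.0 and 85.7 CPM against 21.1, 18.1 and 21.4 CPM (4.30-fold). The receptor gene Egfr was at 67.6, 70.6 and 74.8 CPM and 3.52-fold higher in the keratin-high set, short of the 4-fold rule. In the FGF and PDGF list, 3 of 16 were higher in the keratin-high set and 5 in the collagen-high set (median -0.63). Fgf7, a stromal ligand for epithelial receptors, was at 11.4, 10.1 and 12.4 CPM against 122, 116 and 113 CPM (10.4-fold). Fgfr2, whose epithelial form binds Fgf7, lay the other way, at 26.7 against 5.22 CPM.

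The other signalling lists had medians of -0.20 to -0.06, with genes 4-fold apart in both directions. TGF-beta genes had 2 of 19 higher in the keratin-high set and 1 in the other (median -0.06), where the co-receptor Tgfbr3 stood at 54.6, 60.0 and 55.9 CPM against 1.67, 2.33 and 2.11 CPM (27.9-fold). The matrix-linked target Ccn2 stood at 13.0, 10.8 and 11.2 CPM against 145, 144 and 140 CPM (12.4-fold the other way). Hedgehog genes had 1 of 11 in each direction (median -0.07). Hhip, which binds and holds back Hedgehog ligands, stood at 259, 259 and 265 CPM against 7.32, 7.05 and 5.20 CPM (39.7-fold). Notch genes had 2 of 13 higher in the keratin-high set and 1 in the other (median -0.20), with the ligand Jag2 at 91.5, 85.7 and 91.4 CPM against 1.19, 1.42 and 1.51 CPM (65.2-fold) and the receptor Notch3 at 10.8 against 56.7 CPM. Wnt genes had 3 of 22 higher in the keratin-high set and 5 in the other (median -0.06). The epithelial ligands Wnt10a and Wnt7b were at 15.6 and 13.5 CPM against 0.671 and 1.14 CPM, and the secreted inhibitor Sfrp2 at 0.885 against 90.1 CPM.

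The genes of the labelled alleles were expressed in both sets. Trp53 stood at 190, 168 and 179 CPM in the keratin-high libraries and 309, 314 and 312 CPM in the collagen-high libraries, a log2 difference of -0.80 (SE 0.05). Pik3ca stood at 77.1, 80.8 and 77.1 CPM against 88.7, 88.4 and 88.0 CPM (log2 -0.17, SE 0.02). Of 29 p53 targets, 1 was higher in the keratin-high set, which was Perp, and 4 in the collagen-high set, with a median of -0.24. Cdkn1a, the cell cycle inhibitor p21, stood at 7.09, 6.39 and 7.25 CPM against 57.5, 61.8 and 65.0 CPM (8.88-fold). Gdf15, a stress-induced ligand, stood at 0.185, 0.224 and 0.337 CPM against 24.1, 24.4 and 23.5 CPM (95.9-fold). Both levels of Cdkn1a were below the means of 226 CPM in p53 and 567 and 172 CPM in the E20 sets. Of 30 PI3-kinase, AKT and phosphatase genes, 1 was 4-fold apart, and the median was 0.07. That gene, the insulin receptor substrate Irs1, stood at 31.7, 29.9 and 30.6 CPM against 262, 259 and 255 CPM (8.42-fold).

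Growth lists are given beside the 11.4% of all tested genes that were 4-fold apart in either direction. None of 20 mitotic and none of 20 DNA replication genes was 4-fold apart in either direction, with medians of 0.13 and -0.16. Mki67, the proliferation marker, stood at 570, 563 and 559 CPM against 288, 286 and 262 CPM (2.02-fold), and Ccnb2 at 148 against 70.9 CPM. The replication genes Mcm4 and Gins2 lay the other way, at 150 against 220 CPM and 22.6 against 36.9 CPM. Among 20 G1 genes, 1 was 4-fold apart in each direction (median -0.08), and Cdkn2a, which encodes p16 and p19ARF, was at 142 against 376 CPM. Of 20 glycolysis and hypoxia genes, 1 was at least 4-fold higher in the keratin-high set, the peptide hormone gene Adm (median 0.50). The pyruvate dehydrogenase kinase gene Pdk1 was at 380 against 111 CPM, short of the 4-fold rule. Of 20 NRF2 antioxidant genes, 4 were higher there (median -0.22), with the glutathione transferase Gsta4 at 397, 428 and 414 CPM against 49.0, 50.3 and 49.4 CPM (8.33-fold).

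Immune signals differed in ligands more than in antigen presentation. Of 20 chemokines and cytokines, 8 were higher in the keratin-high set and 3 in the collagen-high set (median 0.61). Il1rn, the IL-1 receptor antagonist of keratinocytes, stood at 406, 457 and 413 CPM against 7.21, 6.48 and 6.32 CPM (63.8-fold). Cx3cl1 was at 111 against 11.2 CPM, and Cxcl10, an interferon-induced chemokine, at 0.987 against 13.7 CPM. None of 11 MHC class I genes was 4-fold apart, beside 11.4% of all tested genes (median -0.31). Of 24 interferon response genes, 2 were higher in the keratin-high set and 1 in the collagen-high set (median -0.13). Of 15 metalloproteinases and inhibitors, 3 lay in each direction (median -0.51), with Mmp3 at 46.1 against 3.52 CPM and Mmp2 at 25 against 398 CPM.

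Markers of other cell types were checked for the whole lists. The leukocyte list summed to 33.5 to 37.3 CPM in the keratin-high libraries and 13.3 to 14.2 CPM in the collagen-high libraries, with 5 of 12 members tested, and Ptprc was at most 0.169 CPM in any of the 6. The macrophage genes Cd68 and Csf1r lay in opposite directions, at 20.9 against 3.06 CPM and 0.0374 against 2.20 CPM. Endothelial markers summed to 42.5 to 43.9 CPM and 95.1 to 100 CPM, but Pecam1 was at 0.268 and 0.788 CPM and Cdh5 at 0 and 0.0586 CPM, and Eng, which fibroblasts also express, was at 3.75 against 87.3 CPM. Flt1, a VEGF receptor of the same list, lay the other way, at 36.6 against 6.87 CPM. Sox10, of Schwann cells and melanocytes, had 0 reads in all 6. The list of Schwann and melanocyte markers summed to at most 13.9 CPM in any library, and that of adipocyte and erythroid markers to at most 66.5 CPM. Cartilage and bone markers summed to 2351 to 2599 CPM and 2813 to 2996 CPM, mainly through Spp1 (2313 and 2721 CPM), which many cells express. Col2a1, of cartilage, was at 0.213 against 6.62 CPM. In the collagen-high libraries the epithelial genes Krt5, Epcam and Krt6a had 0 reads, and Krt14 and Cdh1 were at most 0.238 CPM. Other members of the epithelial lists were present there, such as Itga6 (27.6 CPM), Pkp1 (6.74 CPM) and, as given above, Trp63. Dsc2 and Ecm1 were higher there than in the keratin-high set, at 4.91 against 0.668 CPM and 404 against 312 CPM. Krt5, Krt14 and Krt6a were also low in p53, with means of 0.0670, 0.695 and 0.545 CPM. E20 replicates 4 to 6 had means of 0.0226, 0.0222 and 0 CPM for them, and E20 replicates 1 to 3 had 6.51, 66.5 and 30.0 CPM. The part of other cell types in the differences between the keratin-high and collagen-high sets was not tested.

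Both sets held Y chromosome transcripts and little Xist, the RNA of the inactive X. Xist was at most 0.618 CPM in the keratin-high libraries and 0.893 CPM in the collagen-high libraries. Eif2s3y stood at 98.2, 109 and 102 CPM against 70.0, 66.6 and 66.2 CPM (1.52-fold), and Uty at 36.3, 38.8 and 41.4 CPM against 21.3, 18.5 and 16.8 CPM (2.06-fold). Ddx3y and Kdm5d were also higher in the keratin-high set, by 1.91-fold and 1.8-fold, without overlap. None of the 12 immediate early genes, which respond to handling and to growth factors, was 4-fold apart; Fos was at 8.39, 11.9 and 9.78 CPM against a mean of 2.62 CPM.

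The remaining libraries of the series were set beside the 914 and 823 genes, as a description, since these genes were chosen from the 6 libraries alone. p53 tongue lay nearer to the collagen-high set for 709 (77.6%) of the 914 genes and for 719 (87.4%) of the 823. E20 replicates 1 to 3 lay nearer to it for 671 (73.4%) and 645 (78.4%), and E20 replicates 4 to 6 for 720 (78.8%) and 566 (68.8%). WT esophagus lay the other way, nearer to the keratin-high set for 543 (59.4%) of the 914 and 569 (69.1%) of the 823. Across all tested genes, r with p53 libraries was 0.945 to 0.948 for the collagen-high set and 0.836 to 0.840 for the keratin-high set. With WT libraries it was 0.828 to 0.829 for the collagen-high set and 0.877 to 0.880 for the keratin-high set. WT held less of the basal keratins, however, with Krt5 at 0.0784 CPM and Krt14 at 13.4 CPM, against 127 and 483 CPM in the keratin-high set. WT and the keratin-high set shared high Pitx1 (161 and 173 CPM), Sox2 (37.0 and 53.7 CPM) and Igfbp4 (1323 and 1327 CPM), and low Igf2 and H19. They differed in Krt18, in Fn1 (19916 CPM in WT) and in Col1a2 (1344 CPM in WT). Within E20, replicates 1 to 3 held both Krt14 (66.5 CPM) and Col1a2 (6365 CPM).

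**Figure D4:**
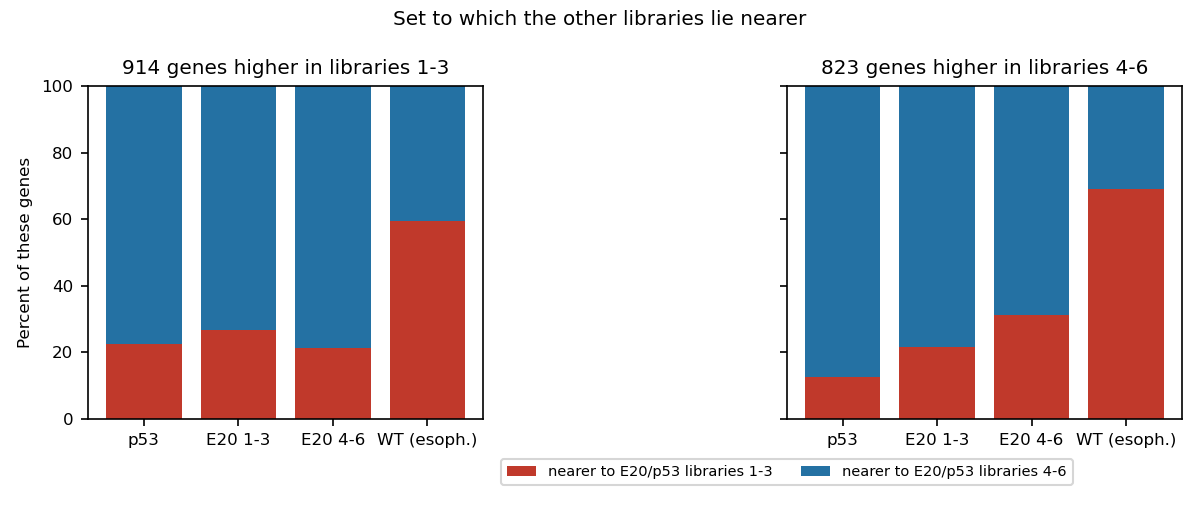
Percent of the 914 genes higher in the keratin-high set (left) and of the 823 genes higher in the collagen-high set (right) for which the mean log2 level of the p53, E20 and WT libraries lay nearer to one set or the other. In p53, 22.4% of the 914 genes lay nearer to the keratin-high set, and in WT 59.4%.

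What the sets shared was examined with the labelled contrasts and with the gap between the set means, so this step uses the division. The spread in the fits includes that gap, so genes alike in both sets are called more readily. In the labelled contrasts, fitted with limma over all 18 libraries, 1960 genes (12.9%) were higher and 1964 (12.9%) lower in E20/p53 than in p53, and 3502 (23.0%) and 2989 (19.6%) than in E20, at an adjusted p under 0.05. Without p53 replicates 1, 2 or 3, limma called 1111, 1117 and 1176 genes higher and 1301, 1214 and 1285 lower than in p53. Without E20/p53 replicates 4 to 6 it called 4766 and 4968 against p53, and without replicates 1 to 3 it called 2734 and 2475. A gene was counted as shared when both contrasts called it in 1 direction, all 6 libraries lay beyond all 9 other tongue libraries, and the set means were under 1.5-fold apart, as they were for 7728 (50.7%) of the genes. 436 genes (2.86%) were shared and higher in E20/p53, and 356 (2.34%) were shared and lower. With each set of 3 libraries averaged to 1 value, limma called 0 genes in either contrast and direction, with 99 higher and 323 lower against p53, and 340 and 633 against E20, at an unadjusted p under 0.05. Both contrasts use the same 6 libraries, and sex goes with the contrast to E20, whose libraries held Xist at 893 and 1303 CPM and no Eif2s3y reads.

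Interferon-induced genes stood low in both sets. Of 24, 10 were among the shared lower genes, beside 2.34% of all tested genes, and none among the higher. Ifit3, an antiviral protein, ranged from 1.24 to 2.67 CPM (median 1.68) over the 6 libraries, against 31.9 to 41.4 CPM in p53 and 88.3 to 233 CPM in E20. It was lower than in p53 by log2 -4.27 (SE 0.29, limma adjusted p = 3.8e-08) and than in E20 by log2 -6.43 (SE 0.24, limma adjusted p = 8.5e-12). Gvin1, an interferon-induced GTPase, ranged from 0.802 to 1.79 CPM (median 0.943), against 36.1 to 49.1 CPM in p53 (log2 -5.17, SE 0.30, limma adjusted p = 8.2e-09) and 63.9 to 164 CPM in E20 (log2 -6.58, SE 0.24, limma adjusted p = 8.9e-12). That all 6 libraries lay below every other tongue library for both genes, with both calls, follows from the rule for shared genes. Usp18, which removes ISG15 from proteins, ranged from 0.864 to 1.88 CPM, against 32.9 to 37.3 and 55.7 to 256 CPM. The means of Oas1g, Oasl2, Trim30a and Ifit3b were 0.235, 6.24, 2.02 and 1.12 CPM in E20/p53, against 11.8, 54.5, 34.0 and 17.7 CPM in p53. WT was also low for Ifit3, Usp18 and Oas1g, at 2.63, 0.437 and 0.0200 CPM. Oasl2, Trim30a and Ifit3b were low in WT too, at 4.29, 0.0392 and 2.09 CPM, but Gvin1 was at 253 CPM. Prl2c2, a placental prolactin relative, was the remaining named gene of this direction, at 10.9 to 16.5 CPM against 121 to 145 CPM in p53 and 63.9 to 204 CPM in E20.

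The shared lower genes included 2 of 11 MHC class I genes (B2m and Tap1) and 3 of 25 oral and jaw patterning factors (Msx1, Foxf2 and Tbx3). Basement membrane and p53 target genes were also among the shared lower genes. Of 15 basement membrane genes, 4 were (Col4a1, Col4a2, Lama5 and Lamb1), beside 2.34% of all tested genes. Col4a1, a type IV collagen chain, ranged from 328 to 406 CPM (median 357), against 884 to 986 CPM in p53 (log2 -1.37, SE 0.10, limma adjusted p = 5.5e-08) and 608 to 824 CPM in E20 (log2 -0.96). The set means of Col4a1 were 348 and 375 CPM, beside the wide gap in Col1a2. Of 29 p53 targets, 4 were shared and lower (Mdm2, Ccng1, Phlda3 and Zmat3), beside the same 2.34% of all tested genes. Ccng1, a cyclin of p53 feedback, was at 91.2 and 74.2 CPM in the keratin-high and collagen-high sets, against 163 CPM in p53 (log2 -0.98, SE 0.25, limma adjusted p = 0.00892) and 351 CPM in E20. Mdm2, the ligase that degrades p53, was at 57.4 and 68.7 CPM against 107 CPM in p53, and that call was lost without p53 replicate 2 (limma adjusted p = 0.0659), and equally when E20/p53 replicates 1 to 3 were left out (limma adjusted p = 0.0649). The call of Phlda3 against p53 was lost without p53 replicates 1, 2 or 3 (limma adjusted p = 0.118, 0.139 and 0.0789), and when leaving out E20/p53 replicates 2, 4, 5 or 6 (limma adjusted p = 0.0540, 0.0602, 0.0614 and 0.0510).

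Shared higher genes came from several pathways. Fzd6, a Wnt receptor of planar polarity, ranged from 67.8 to 76.9 CPM (median 73.4), against 21.0 to 24.4 CPM in p53 (log2 1.66, SE 0.07, limma adjusted p = 3.0e-10) and 23.5 to 28.2 CPM in E20 (log2 1.54, SE 0.06, limma adjusted p = 8.2e-12). Prdm16, a regulator of brown fat and stem cells, ranged from 9.77 to 16.0 CPM, against 2.09 to 2.95 CPM in p53 (log2 2.37, SE 0.60, limma adjusted p = 0.00892) and 0 to 0.412 CPM in E20. Both stood at a similar level in WT, with means of 75.4 and 19.2 CPM. Ndnf, a secreted neuron-derived factor, ranged from 11.3 to 18.5 CPM, against 1.00 to 1.24 CPM in p53 (log2 3.67, SE 0.83, limma adjusted p = 0.0041) and 0.0667 to 3.16 CPM in E20. Stmn2, a microtubule protein of neurons, ranged from 6.71 to 9.87 CPM against at most 1.01 CPM in the other tongue libraries. Irx2, an Iroquois homeobox factor, was at 14.9 to 22.6 CPM against 6.49 to 7.10 CPM in p53. Timp3, a metalloproteinase inhibitor, was at 521 to 788 CPM, against 166 to 176 CPM in p53 and 99.0 to 501 CPM in E20, and its calls were lost without E20/p53 replicates 1 to 3 (limma adjusted p = 0.0509 and 0.0584). The scavenger receptor gene Stab1 and the phosphatase gene Ptpru completed the named genes of this direction. The call of Ptpru against p53 was lost without p53 replicates 1, 2 or 3 (limma adjusted p = 0.0967, 0.0837 and 0.0814) or E20/p53 replicate 1 (limma adjusted p = 0.0512), and when E20/p53 replicates 1 to 3 were left out (limma adjusted p = 0.0919). Of 30 PI3-kinase, AKT and phosphatase genes, 3 were shared and higher (Tsc2, Mtor and Rps6kb1), beside 2.86% of all tested genes. The Wnt list had 2 of 22 (Fzd6 and Tcf7). Of 11 Hedgehog genes, 2 were shared and higher, beside the same 2.86%. Ptch1, the receptor and target of the pathway, was at 27.5 and 29.7 CPM in the sets against 13.1 CPM in p53 (log2 1.14, limma adjusted p = 0.00284), and Gli3 at 113 and 118 CPM against 80.7 CPM. Runx2, a skeletal regulator, was at 104 and 102 CPM against 69.3 CPM in p53 and 56.6 CPM in E20.

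Differences between the sets were not spread evenly over chromosomes. Among 6440 genes at 20 CPM or more in all 18 libraries and with a RefSeq position on chromosomes 1 to 19 or X, the median log2 difference was -0.12. On chromosome 12 it was 0.65, and 194 of 210 genes (92.4%) were higher in the keratin-high set, against 41.4% of all 6440. Over the 9 library pairs the chromosome 12 median ran from 0.64 to 0.68. In 8 blocks of 25 neighbouring genes along the chromosome, the block medians ran from 0.47 to 0.86, all above 0. The collagen-high set lay below each of the 4 other sets in the chromosome 12 median, by log2 -0.36 to -0.47, and the keratin-high set lay above each of them by 0.21 to 0.30. The lowest medians were on chromosome 4 (-0.52, with 56 of 381 genes higher in the keratin-high set), chromosome 15 (-0.51, 48 of 284) and chromosome 16 (-0.42, 31 of 185), where all blocks were below 0. Krt5 lies on chromosome 15 and is not among these genes. Chromosome 2 was level, with a median of 0.00 over 551 genes. The median on X was -0.37 over 199 genes. Genes of a chromosome are not replicates, so no test was made, and the number of chromosome copies was not measured.

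**Figure D5:**
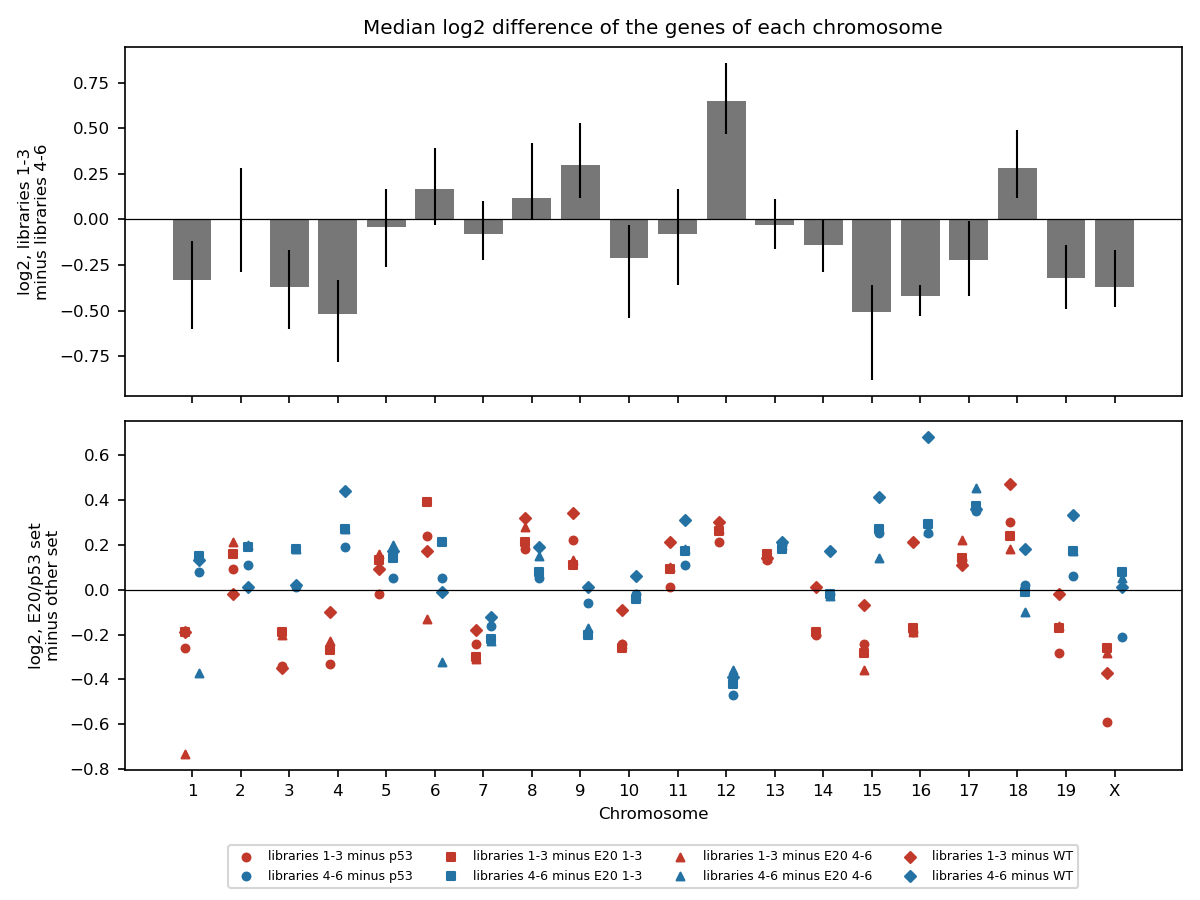
Median log2 difference by chromosome over 6440 genes, with the keratin-high set minus the collagen-high set above (bars, with lines from the lowest to the highest median of blocks of 25 genes) and each E20/p53 set minus each of the 4 other sets below. Chromosome 12 stands highest at 0.65, with replicates 1 to 3 above and replicates 4 to 6 below all other sets.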

How the data were processed

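The deposited table holds log2 values for 26143 genes in 18 libraries. Per the submitters' processing notes, reads were handled with bcl2fastq 1.8.4, Trimmomatic and featureCounts on mm10; for the others no version is stated. The deposited log2 values come from reads with 1 added, each divided by a scaled library total: 100% of them gave back whole reads within 0.001. Reads over that total gave CPM. Since the unit is log2, limma 3.58.1 (R 4.3.3, trend, Benjamini-Hochberg) was used in place of a count test; it was tested on simulated data. Genes needed 0.635 CPM (10 reads at median depth) in at least 3 libraries and 15 reads in all, which left 15235.

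The sets, members and gene lists were chosen with earlier results of these data known. Named genes were the 3 marker genes, Trp53 and Pik3ca, the 12 largest log2 differences per direction at 50 CPM or more, up to 4 genes per list at 5 CPM or more, 8 shared genes per direction, and marker checks; predicted genes were left out. Some list members, such as Trp63, Vim, Cdh1 and Mdm2, were named beyond that rule after their values were seen. Groups came from the labels. Replicate numbers were not taken to pair libraries. Alternatives were another scaling, pseudocount and filter, a block, left-out libraries and set means.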

Additional observations from a re-analysis of the deposited data

How the results depend on the processing

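Of the 15235 genes, 914 were at least 4-fold higher in the keratin-high set and 823 in the collagen-high set. With log2 of CPM plus 1 the counts were 476 and 520, and with a minimum of 10 CPM they were 377 and 440. Leaving out 1 of the 6 libraries gave 908 to 930 and 815 to 829, and median-of-ratios scaling gave 928 and 812. Against p53, leaving out 1 library gave 1111 to 2358 genes higher and 1214 to 2333 lower. Without E20/p53 replicates 4 to 6 the counts were 4766 and 4968 against p53, and 4778 genes were lower than in E20. Without replicates 1 to 3 they were 2734 and 2475 against p53. A fit of the 2 compared groups alone gave 1399 higher and 1449 lower against p53, and 2697 and 2347 against E20. With 6 set means, 0 genes were called in each contrast and direction and 0 were shared; fewer values enter that fit. Leaving out 1 library gave 310 to 491 shared higher genes and 284 to 391 shared lower genes. With the replicate number as a block, 3253 genes were higher and 3157 lower than in p53, 3935 and 3332 than in E20, and 436 and 367 were shared; the calls of Mdm2 and Phlda3 against p53 were lost (limma adjusted p = 0.0609 and 0.0605). Deviations from the group mean of libraries with the same number had r of 0.040 to 0.074 in E20 and -0.021 to 0.021 in p53, across genes. In E20/p53 these deviations hold the gap between the sets, so they cannot show whether numbers pair libraries. No pairing was assumed, since the labels give none. Phlda3 was also lost against p53 with no filter (limma adjusted p = 0.0515) and without E20/p53 replicates 4 to 6 (limma adjusted p = 0.130). Under scaling, pseudocount, filter (lists alone) and left-out E20/p53 libraries, no set difference called 4-fold changed sign; medians near 0 of the TGF-beta, Wnt and interferon lists did without 1 library (0.07, 0.04 and 0.01), as did small differences of Gvin1, Ifit3b, Prl2c2 and Runx2, that of Ifit3b also with median-of-ratios scaling. Depth limits genes near 0 reads: a fold over a set with 0 reads is a bound, and a fold over a few reads, as for Krt17 and Des (4 reads each in the lower set), is imprecise. The causes of these shifts were not tested.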
